A study of Rattus norvegicus with 19 samples.

Results

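The genes described are 10 components of the circadian clock, namely Bmal1 (also called Arntl), Npas2, Clock, Dbp, Per1, Per2, Per3, Nr1d1, Nr1d2 and Hlf. They were chosen by symbol, and every probe set annotated to one of these symbols alone was taken. All 10 genes were found, by 20 probe sets of the 31042 tested, in a table that covers 14217 named genes. RNA was measured on 19 arrays of the deep motor cortex of adult female Fischer 344 rats, cut from the inferior side of the limb motor area so as to hold layer V, where the corticospinal neurons have their cell bodies. The lesion groups had the dorsal columns cut with a wire knife at cervical level C3, far from the tissue sampled, and were taken at days 1, 3, 7, 14 and 49 (n = 3 each). The controls (n = 4) carry time 0, and the labels do not say whether they had a sham operation. No transgene or drug is named for any group. The labels do not say that replicates are separate animals, so p-values measure the spread between these samples, which may be technical. The hour of dissection and the light cycle are not given in the sources used here, and a sampling hour that differs between groups cannot be told apart from the lesion. The tissue holds neurons, glia and vessels together, and a lower signal from fewer cells of a type cannot be told apart from less RNA per cell.

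The circadian clock is a feedback loop of transcription factors that runs in nearly every cell, neurons and astrocytes of the cortex included. BMAL1 pairs with CLOCK, or with its relative NPAS2, and the pair switches on genes with an E-box, among them the Per, Dbp and Nr1d genes. PER proteins block that pair, and the NR1D proteins (REV-ERB receptors) repress Bmal1 by binding the half-site that ROR receptors also use, so Bmal1 RNA is high when Dbp and Nr1d RNA is low. DBP and HLF are related factors that bind the D-box and pass the rhythm on to other genes.

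Promoters are shown for the 4 members whose windows hold at least 1 of the motifs searched. The sequences are from RefSeq (build GRCr8) and run from 250 bases before to 50 bases after a transcription start, 5′ to 3′ on the gene's strand. A window was held for 9 of the 10 genes, 11 windows in all, and none for Hlf. Capitals mark exact matches, on either strand, to CACGTG (E-box), CACGTT (E-box variant), TTATGTAA (D-box) or AGGTCA (the receptor half-site), and no marked match overlaps another.
Bmal1, chr1:176766078-176766377, plus strand: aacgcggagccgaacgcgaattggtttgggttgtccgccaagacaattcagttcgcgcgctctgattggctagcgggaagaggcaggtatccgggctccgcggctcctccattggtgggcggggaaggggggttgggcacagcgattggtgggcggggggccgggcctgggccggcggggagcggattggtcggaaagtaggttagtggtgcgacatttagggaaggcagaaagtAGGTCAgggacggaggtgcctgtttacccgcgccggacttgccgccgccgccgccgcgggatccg
Per2, chr9:99496944-99497243, minus strand: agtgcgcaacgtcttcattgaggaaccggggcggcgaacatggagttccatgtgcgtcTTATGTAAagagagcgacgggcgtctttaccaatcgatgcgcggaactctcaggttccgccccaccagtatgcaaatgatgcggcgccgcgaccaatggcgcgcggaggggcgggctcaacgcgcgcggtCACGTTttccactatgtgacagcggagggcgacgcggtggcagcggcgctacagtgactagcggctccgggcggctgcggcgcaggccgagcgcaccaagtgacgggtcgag
Nr1d1, first window, chr10:84231763-84232062, minus strand: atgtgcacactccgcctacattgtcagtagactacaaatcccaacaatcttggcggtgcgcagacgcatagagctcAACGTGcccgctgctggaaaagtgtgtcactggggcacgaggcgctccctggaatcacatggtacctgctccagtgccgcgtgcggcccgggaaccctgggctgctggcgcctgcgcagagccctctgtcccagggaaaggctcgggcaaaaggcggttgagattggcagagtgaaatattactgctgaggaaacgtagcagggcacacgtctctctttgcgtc
Nr1d1, second window, chr10:84229405-84229704, minus strand: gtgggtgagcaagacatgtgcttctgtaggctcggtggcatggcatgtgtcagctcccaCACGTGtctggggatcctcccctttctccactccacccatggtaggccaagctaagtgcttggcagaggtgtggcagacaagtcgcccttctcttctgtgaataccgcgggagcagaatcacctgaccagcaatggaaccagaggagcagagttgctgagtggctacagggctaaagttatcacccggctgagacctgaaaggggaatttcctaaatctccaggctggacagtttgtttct
Nr1d2, chr15:9954784-9955083, plus strand: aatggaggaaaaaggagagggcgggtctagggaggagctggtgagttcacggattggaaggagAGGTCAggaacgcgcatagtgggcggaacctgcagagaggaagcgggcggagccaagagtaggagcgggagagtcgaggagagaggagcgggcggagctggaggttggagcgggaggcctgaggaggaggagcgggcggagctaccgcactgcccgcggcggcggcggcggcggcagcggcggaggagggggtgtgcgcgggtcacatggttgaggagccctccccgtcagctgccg

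In the Bmal1 window the half-site begins 15 bases before the start. In the Per2 window the E-box variant begins 62 bases and the D-box 192 bases before it. The windows of Nr1d1 hold the E-box variant on the opposite strand, 174 bases before the start, and the full E-box 191 bases before the other start. The Nr1d2 window has a half-site 187 bases before its start. Among all 33469 windows of the same length, 6.42% held CACGTG, 4.83% CACGTT, 0.893% TTATGTAA and 16.2% AGGTCA, against 1, 2, 1 and 2 of the 11 clock windows. A match is a description of these letters, and the arrays do not measure binding.

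Values are log2 signals summarised by RMA, 1 per probe set and array. Of the arrays, 17 resembled one another closely, with a median correlation with the other arrays of 0.994 to 0.997 over all probe sets. Replicate 2 of day 14 (0.931) and replicate 2 of day 49 (0.968) stood apart, and the beta-actin 3′ minus 5′ difference, a measure of RNA integrity, was 2.24 in the first of these against 0.85 to 1.29 in all the others. The tests and correlations below are given with and without them where the values differ most. Of the layer V markers, Pcp4 had a mean log2 signal of 12.80, Etv1 of 11.09, Crym of 7.94, Bcl11b of 5.70 and Fezf2 of 4.36, values that depend on each probe set and are not ranked here.

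Bmal1, Dbp and Nr1d2 differed most from control at day 1, and there in 2 of the 3 arrays. By their brightest probe sets, Bmal1 was higher and Dbp and Nr1d2 were lower in these arrays than in every other array of the study, while replicate 3 of day 1 lay within the control range. No clock probe set passed the threshold at any time in the fit of all arrays.

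Among the activators, Bmal1 read 6.39, 6.54, 6.23 and 6.30 in the controls, 7.19, 7.15 and 6.30 at day 1, 6.43, 6.45 and 6.29 at day 3, 6.41, 6.16 and 6.27 at day 7, 6.32, 5.84 and 6.19 at day 14, and 6.44, 6.16 and 6.22 at day 49. Replicates 1 and 2 of day 1 were the highest of the study, and replicate 3 lay among the controls, so the groups overlapped. Day 1 lay 0.51 above control on the log2 scale (SE 0.176, 95% interval 0.14 to 0.89), a ratio of 1.43.

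Npas2, the partner that can stand in for Clock in the forebrain, read 4.25, 4.19, 3.95 and 3.90 in the controls, 4.39, 4.46 and 4.40 at day 1, 4.24, 4.00 and 3.90 at day 3, 4.05, 4.00 and 3.84 at day 7, 4.14, 4.62 and 4.18 at day 14, and 4.06, 4.10 and 4.33 at day 49. All day 1 arrays lay above all controls, and only replicate 2 of day 14, which stands apart, was higher. The day 1 difference was 0.34 (SE 0.126, 95% interval 0.08 to 0.61).

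Clock itself, by the brightest of its 4 probe sets, read 6.97, 6.63, 6.82 and 6.72 in the controls, 7.14, 6.92 and 6.81 at day 1, 6.93, 6.84 and 7.00 at day 3, 6.78, 6.73 and 6.71 at day 7, 6.67, 8.12 and 6.56 at day 14, and 6.92, 5.47 and 6.50 at day 49. The highest and the lowest of these values belong to the arrays that stand apart, and the remaining arrays lay between 6.50 and 7.14. The day 1 difference was 0.17, with an interval of -0.51 to 0.86, and 0.17 with an interval of -0.04 to 0.39 in the fit without those arrays. Clock probe set 2 had its extremes in the same arrays, 7.53 and 5.05.

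Of the outputs, Dbp, a D-box factor and a direct target of the Bmal1 pair, read 6.81, 6.65, 7.77 and 8.07 in the controls, 5.88, 6.06 and 7.18 at day 1, 6.86, 6.74 and 7.08 at day 3, 7.70, 7.56 and 8.02 at day 7, 7.36, 6.81 and 7.70 at day 14, and 7.16, 7.86 and 7.74 at day 49. Replicates 1 and 2 of day 1 were the lowest of the study. The controls spanned 1.41 on this scale, with 6.81 and 6.65 in controls 1 and 2 and 7.77 and 8.07 in controls 3 and 4, and replicate 3 of day 1 fell inside that span. Day 1 lay below control by -0.95 (SE 0.353, 95% interval -1.70 to -0.20), a ratio of 0.518.

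Nr1d2, which encodes the repressor REV-ERB beta, had 3 probe sets, numbered from the brightest. Probe set 1 read 8.63, 8.43, 8.95 and 8.87 in the controls, 8.01, 7.86 and 8.53 at day 1, 8.61, 8.71 and 8.69 at day 3, 8.84, 8.88 and 8.98 at day 7, 8.46, 9.52 and 8.75 at day 14, and 8.70, 8.26 and 8.88 at day 49. Replicates 1 and 2 of day 1 were again the lowest, and replicate 3 lay among the controls. Probe set 2 read 8.12, 7.87, 8.49 and 8.45 in the controls, 7.36, 7.24 and 7.83 at day 1, 8.01, 7.92 and 8.15 at day 3, 8.17, 8.11 and 8.29 at day 7, 7.93, 8.03 and 8.15 at day 14, and 8.13, 7.14 and 7.97 at day 49. Here all day 1 arrays lay below all controls, and the lowest value of the study was that of replicate 2 of day 49. The day 1 differences were -0.59 (SE 0.220) and -0.75 (SE 0.206, 95% interval -1.19 to -0.31), and probe set 3 gave -0.77 with overlapping groups.

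Nr1d1, the gene of the sister repressor REV-ERB alpha, read 5.49, 5.72, 5.65 and 5.91 in the controls, 4.96, 5.56 and 6.08 at day 1, 5.65, 5.75 and 5.57 at day 3, 5.89, 5.71 and 6.00 at day 7, 5.82, 5.85 and 6.00 at day 14, and 5.87, 5.57 and 5.86 at day 49. The day 1 arrays held both the lowest and the highest value of the study. The mean difference at day 1 was -0.16, with an interval of -0.55 to 0.23.

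The Per genes encode the inhibitors of the Bmal1 pair, and the Per2 probe sets gave different values. The Per2 probe set designed on its RefSeq mRNA read 5.41, 5.35, 7.14 and 6.05 in the controls, 5.28, 5.12 and 5.90 at day 1, 5.45, 5.70 and 5.82 at day 3, 6.39, 6.44 and 6.29 at day 7, 5.35, 6.64 and 5.83 at day 14, and 5.60, 5.66 and 6.69 at day 49. Its lowest values were replicates 1 and 2 of day 1 and its highest control replicate 3, and the groups overlapped. The brighter Per2 probe set, designed on an expressed sequence tag, lay between 6.87 and 7.36 in every array but replicate 2 of day 49 (7.94). The day 1 differences of these probe sets were -0.56 (interval -1.39 to 0.28) and 0.12 (interval -0.22 to 0.45).

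Per1, which also answers to neuronal activity and to glucocorticoids, lay between 6.65 and 7.12 in all arrays, with a day 1 difference of 0.004 (interval -0.19 to 0.20). Per3 lay between 4.53 and 5.29 by its brighter probe set and differed at day 1 by -0.02 (interval -0.29 to 0.24). For both genes the day 1 arrays overlapped with the controls.

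Hlf, a D-box factor related to Dbp, had 4 probe sets. Probe set 1, the brightest, read 5.87, 5.73, 6.09 and 5.89 in the controls, 5.38, 5.73 and 5.54 at day 1, 5.28, 5.43 and 5.85 at day 3, 5.59, 5.84 and 5.96 at day 7, 5.42, 6.16 and 5.73 at day 14, and 5.18, 4.94 and 5.98 at day 49. Every lesion group reached below the lowest control and also overlapped with the controls. The day 1 difference was -0.34 (interval -0.81 to 0.12). The other 3 differed by -0.08, -0.08 and -0.06 at day 1.

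**Figure D1:**
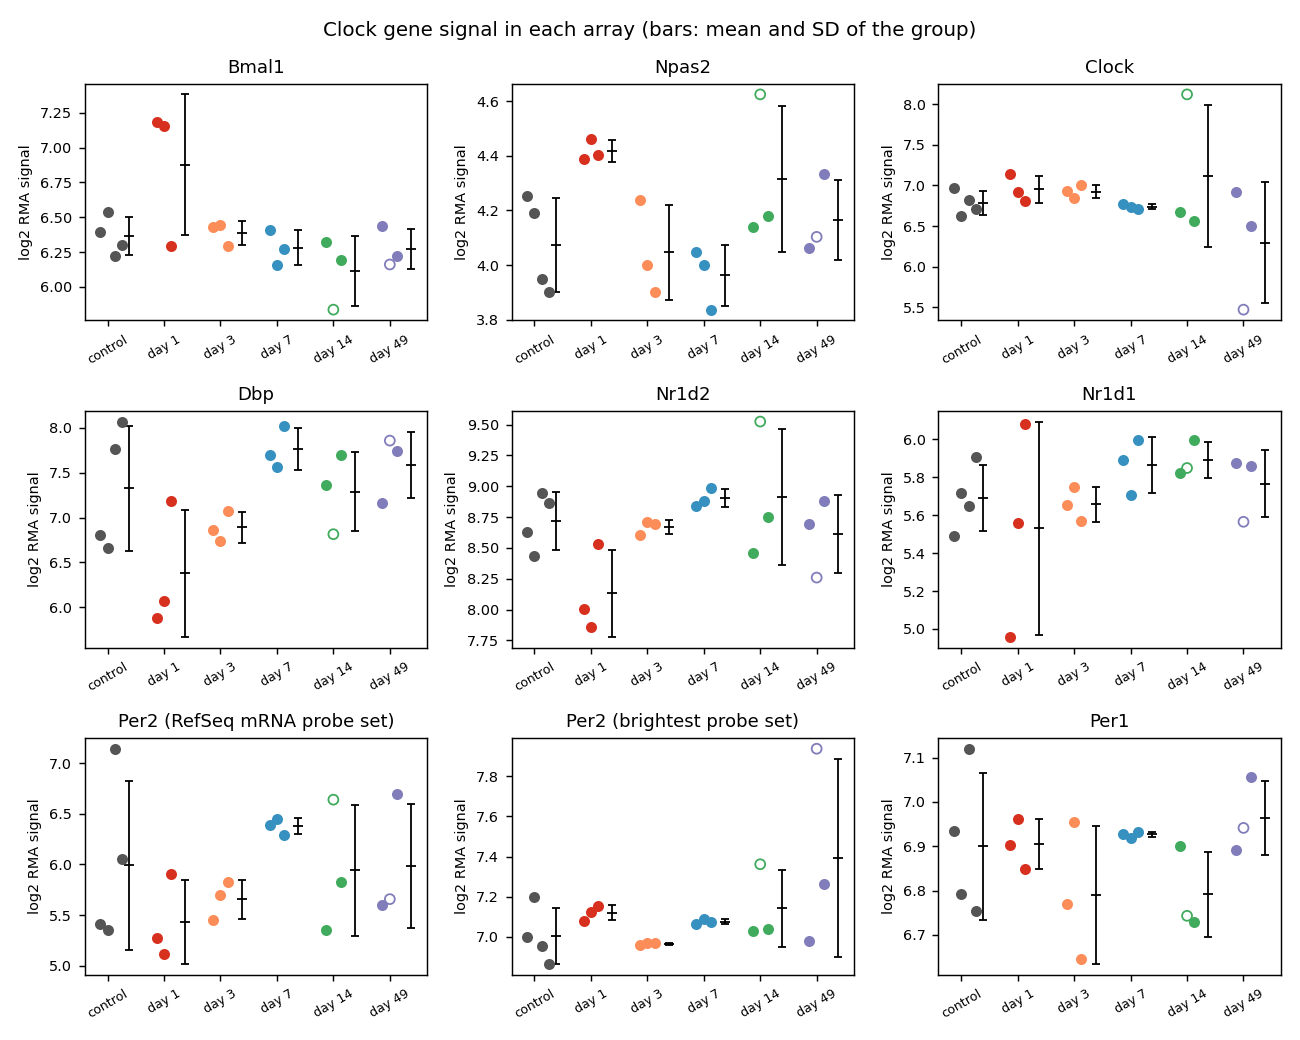
The log2 RMA signal (vertical axes, which do not start at 0) of 8 clock genes in each array by group (horizontal axes), Per2 by both probe sets, with the group mean and SD as bars and the arrays that stand apart as open circles. In the Bmal1 panel day 1 holds 7.19, 7.15 and 6.30, and in the Dbp panel 5.88, 6.06 and 7.18.

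In the limma fit of all arrays, 0 of the 20 clock probe sets passed an adjusted p of 0.05 at day 1, where 0.0354% of all probe sets did (11 of 31042). All had an adjusted p of 1.00. At an unadjusted p under 0.05 there were 6 of 20 (30%), against 1.64% of all probe sets, namely those of Bmal1, Npas2 and Dbp and all 3 of Nr1d2. Only Npas2, with all day 1 arrays above, and Nr1d2 (probe set 2), with all below, did not overlap with control, 2 of 20 against 6.94% of all probe sets. Of the 20, 7 were higher and 13 lower, with a median difference of -0.06, where the median over all probe sets was 0.007.

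Weights for array quality in the same model put 3 clock probe sets past the threshold at day 1, Bmal1 (0.63, adjusted p = 0.0318) and the brighter pair for Nr1d2 (-0.72, adjusted p = 0.00734, and -0.58, adjusted p = 0.0284), where 0.564% of all probe sets passed. Without the arrays that stand apart 0 of 20 passed, against 0.219%, and the smallest adjusted p was 0.0551 (Nr1d2, probe set 2). Without replicate 3 of day 1, Bmal1 differed by 0.80 (adjusted p = 0.0465), where 0.0419% of all probe sets passed. With the beta-actin difference as a covariate, Nr1d2 (probe set 1) passed (adjusted p = 0.0441), where 0.0741% of all probe sets did. With the replicate number as a block, Dbp differed by -0.70 and Bmal1 by 0.49, and 0 of 20 passed, against 0.00966%.

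After day 1 every clock probe set overlapped with the controls. At days 3, 7 and 14 against control, 0 of 20 passed and 0 had an unadjusted p under 0.05, where 0.908%, 0.886% and 13.1% of all probe sets did. At these times and at day 49, 5.47%, 7.05%, 9.05% and 10.1% of all probe sets did not overlap with the controls. With array weights 0 of 20 passed at days 3, 7 and 14, where 0.00644%, 0% and 0.029% of all probe sets did. Dbp differed from control by -0.43 (interval -1.18 to 0.32) at day 3, 0.44 (-0.31 to 1.19) at day 7, -0.03 (-0.78 to 0.72) at day 14 and 0.26 (-0.49 to 1.01) at day 49. Bmal1 differed by 0.02 (-0.35 to 0.40), -0.08 (-0.46 to 0.29), -0.25 (-0.62 to 0.13) and -0.09 (-0.47 to 0.28) at the same times. Without the arrays that stand apart, the day 14 and day 49 differences were 0.20 and 0.13 for Dbp and -0.11 and -0.03 for Bmal1. These comparisons share the control arrays.

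At day 49, 0 of 20 passed, and 4 (20%) had an unadjusted p under 0.05 where 15.4% of all probe sets did. They were Clock (probe set 4, 0.38), the brighter Per2 (0.39), Hlf (-0.53) and Nr1d2 (probe set 2, -0.49), with adjusted p from 0.306 to 0.312. Without replicate 2 of day 14 and of day 49, 1 of 20 had such a p, against 12% of all. With array weights, 7 clock probe sets passed at day 49, where 21% of all probe sets did. Without replicate 1 of day 49, 3 passed, against 7.84%.

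Each time was also set against the one before it. Npas2 was lower at day 3 than at day 1 by -0.37 (SE 0.135), Bmal1 by -0.49 (SE 0.189), and Nr1d2 higher by 0.55 and 0.54. None passed, where 0.0258% of all probe sets did, and 4 of 20 had an unadjusted p under 0.05, against 1.85%. The groups did not overlap for 4 of 20, against 15.9% of all probe sets, namely Npas2 and the brighter Per2 below and the brighter pair for Nr1d2 above. With array weights 3 of 20 passed, against 1.58%. Without the arrays that stand apart 0 of 20 passed, against 0.203%.

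Between day 3 and day 7 several outputs did not overlap, though none passed the threshold. Dbp was 0.87 higher at day 7 (SE 0.378, ratio 1.83, unadjusted p = 0.035, adjusted p = 1.00), and Per2 by its RefSeq mRNA probe set 0.72 higher (interval -0.17 to 1.61). All day 7 arrays lay above all day 3 arrays for Dbp, both Per2 probe sets, Per3 and Nr1d2 (probe set 1), and below them for Clock (probe set 1), 6 of 20 against 11.8% of all probe sets. None passed in this comparison, where 0 of all 31042 probe sets passed, and 1 of 20 had an unadjusted p under 0.05, against 0.561%. Days 14 and 7 did not overlap for 3 of 20, against 11.8%, with Npas2 0.35 higher at day 14, and 1 of 20 had an unadjusted p under 0.05, against 5.4%. Days 49 and 14 overlapped for all 20, against 5.82% of all probe sets that did not, and 2 of 20 had an unadjusted p under 0.05, against 14.2%. These were Clock (probe sets 1 and 2), at -0.82 and -0.83. With the arrays that stand apart left out, their differences were 0.10 and -0.01. With array weights 4 of 20 passed, against 9.62%.

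A moderated F test of all 5 times called 0 of 20, where 0.0129% of all probe sets passed. Of the 20, 6 had an unadjusted p under 0.05, against 4.41%, namely Bmal1, Npas2, Dbp, Nr1d2 (by 2 probe sets) and Clock (probe set 4), all with an adjusted p of 0.724. With array weights 10 of 20 passed, against 20.7%, and without the arrays that stand apart 0 of 20 passed, against 0.135%.

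**Figure D2:**
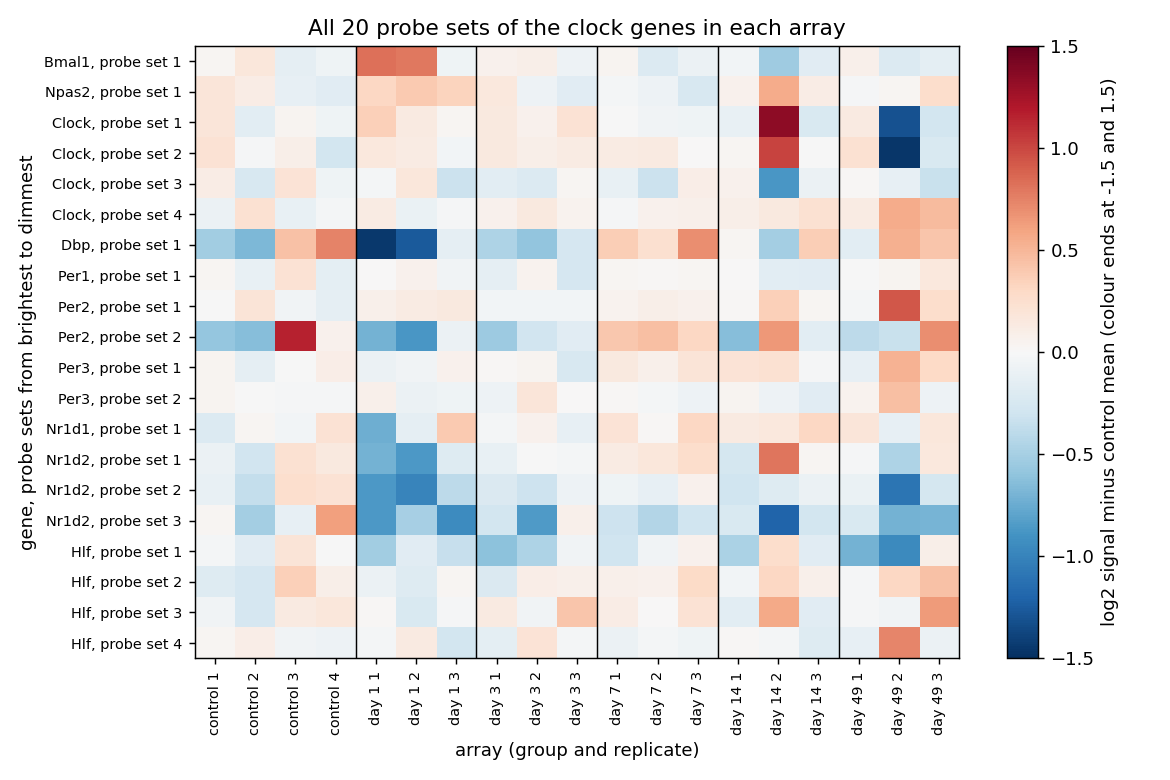
Log2 signal minus the control mean (colour, ending at -1.5 and 1.5) for the 20 clock probe sets (rows, numbered by brightness within a gene) in the 19 arrays (columns). The columns of day 1 replicates 1 and 2 are red for Bmal1 and blue for Dbp and Nr1d2, and those of replicate 2 of days 14 and 49 hold the extreme Clock values.

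To set both sides of the loop beside each other in each array, every gene was taken as its brightest probe set minus its control mean. The means over Bmal1, Npas2 and Clock and over Dbp, Per1, Per2, Per3, Nr1d1 and Nr1d2 were then subtracted. The difference, activators minus outputs, was 0.25, 0.21, -0.21 and -0.26 in the controls and 0.98, 0.79 and 0.06 at day 1. It was 0.25, 0.10 and 0.15 at day 3, -0.15, -0.21 and -0.39 at day 7, -0.05, 0.31 and -0.19 at day 14, and 0.09, -0.74 and -0.30 at day 49. Replicates 1 and 2 of day 1 were the highest of the study, with all 3 activators above and 4 of 6 outputs below their control means. The count of outputs below was also 4 in controls 1 and 2, and it was 5 in replicate 1 of day 3 and of day 49 and 6 in replicate 3 of day 3. Replicate 3 of day 1 was at rank 10 of 19.

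The group means of this difference were 0.61 ± 0.486 (SD, n = 3) at day 1, 0.17 ± 0.077 at day 3, -0.25 ± 0.126 at day 7, 0.02 ± 0.255 at day 14 and -0.31 ± 0.414 at day 49, with an SD of 0.268 in the controls. As a score over chosen genes it was given no test. With Clock left out the day 1 mean was 0.70, with Dbp left out 0.47, and with Per2 taken by its RefSeq mRNA probe set, an alternative chosen after the data were seen, 0.72. The day 49 mean was -0.10 without its replicate 2, -0.52 without its replicate 1, -0.15 with Clock left out and -0.13 with all probe sets of a gene averaged. Every day 3 value was positive and every day 7 value negative, and all of them lay within the span of the controls but that of replicate 3 of day 7.

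The controls themselves were not alike. Controls 1 and 2 had the higher Bmal1 and Npas2 and the lower Dbp, Nr1d2 (probe set 1) and Per2 (RefSeq mRNA), and controls 3 and 4 had the reverse. The brighter Per2 probe set went the other way, at 7.00 and 7.20 in controls 1 and 2 against 6.95 and 6.87. By their brightest probe sets, Clock, Nr1d1, Per1 and Per3 did not divide the controls in this way. This split was noticed in the values and was not tested. The control SD of Dbp was 0.699, higher than that of 99.6% of all probe sets, and that of Per2 (RefSeq mRNA) was 0.831. For Bmal1, Npas2 and Nr1d2 (probe set 1) the control SD was higher than that of 67.6%, 81.6% and 91.5% of all probe sets. Of 13 lists of other genes read in the same arrays (activity, glucocorticoid, temperature and cell type markers), 7 also had controls 1 and 2 above controls 3 and 4, among them meninges and choroid plexus (0.07 and 0.09 against -0.07 and -0.10), astrocytes (0.04 and 0.07 against -0.07 and -0.05), oligodendrocytes (0.07 and 0.05 against -0.09 and -0.03) and skeletal muscle (-0.07 and 1.07 against -0.49 and -0.52). Their part in the clock values was not tested.

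**Figure D3:**
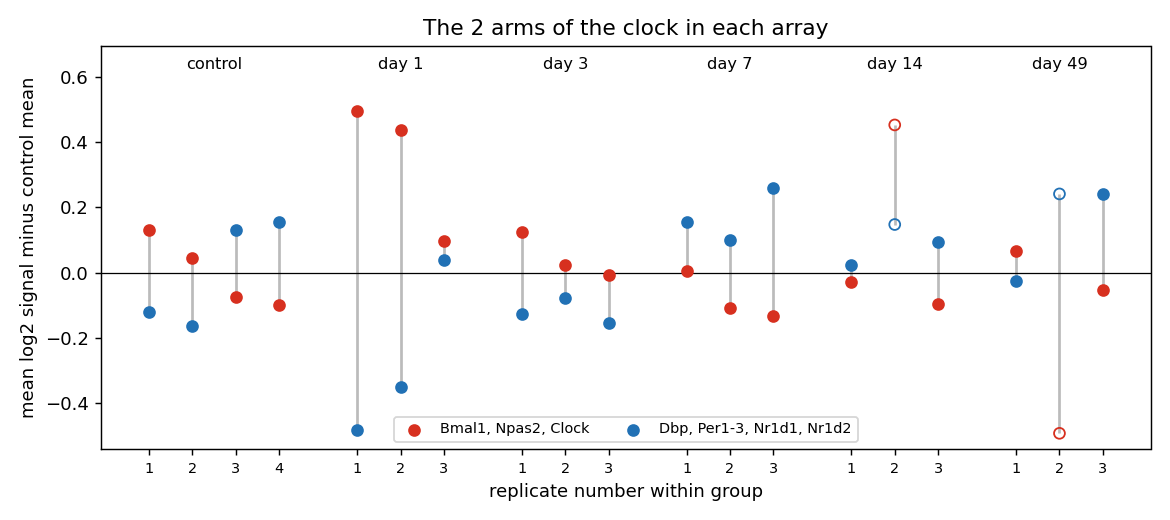
Mean log2 signal minus control mean (vertical axis) of the activators Bmal1, Npas2 and Clock (red) and of the outputs Dbp, Per1-3, Nr1d1 and Nr1d2 (blue) in each array (horizontal axis), joined by a line, with the arrays that stand apart as open circles. The gap is 0.98 and 0.79 in replicates 1 and 2 of day 1, 0.06 in replicate 3, and changes sign within the controls.

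Bmal1, Dbp and the brighter pair for Nr1d2 had some of the strongest correlations of all probe sets across arrays. Over the 17 arrays that resembled one another, Nr1d2 (probe set 1) had the lowest correlation with Bmal1 of all 31041 other probe sets (r = -0.900), its second probe set was 18th lowest (r = -0.848) and Dbp 21st lowest (r = -0.844). Nr1d1 was 206th lowest (r = -0.699) and Per2 by its RefSeq mRNA probe set 468th (r = -0.619). On the other side Clock was 493rd highest (r = 0.582) and Npas2 547th (r = 0.572). For comparison, 90% of all probe sets lay between -0.490 and 0.464. Per1 (r = 0.083), Per3 (r = -0.360), the brighter Per2 (r = 0.166) and Hlf (r = -0.356) lay inside that range. So did the dimmest Nr1d2 probe set (r = -0.339). Without replicates 1 and 2 of day 1, the values with Bmal1 were -0.582 and -0.387 for Nr1d2 (probe sets 1 and 2). Without the same arrays they were -0.093 for the dimmest Nr1d2 probe set, -0.225 for Nr1d1, 0.346 for Clock and 0.141 for Npas2. Over all 19 arrays, the values with Bmal1 were 0.014 for Clock and -0.824 and -0.541 for Nr1d2 (probe sets 1 and 2). They were 0.216 for Npas2, -0.626 for Nr1d1, -0.634 for Per2 (RefSeq mRNA) and -0.030 for the dimmest Nr1d2 probe set. With the group means removed over the 17 arrays, that probe set had r = 0.045 with Bmal1. These values describe points that share a normalization and include the day 1 arrays, and carry no p.

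Set against Dbp in the same arrays, Nr1d2 (probe set 1) had the highest correlation of all 31041 (r = 0.885), its second probe set the 7th (r = 0.851), Per2 (RefSeq mRNA) the 69th (r = 0.761), Nr1d1 the 132nd (r = 0.734) and Hlf (probe set 2) the 219th (r = 0.699). The dimmest Nr1d2 probe set had r = 0.458. Bmal1 was the second lowest of all, Clock 204th lowest (r = -0.656) and Npas2 287th lowest (r = -0.632). With the group means removed, Nr1d2 (probe set 1) and Dbp still gave r = 0.887. Without replicates 1 and 2 of day 1 they gave r = 0.768. Without the same arrays, Nr1d2 (probe set 2) had r = 0.668 with Dbp, Per2 (RefSeq mRNA) 0.712, Nr1d1 0.523 and Hlf (probe set 2) 0.716. The dimmest Nr1d2 probe set had 0.333, Bmal1 -0.700, Clock -0.482 and Npas2 -0.398. Over all 19 arrays the values with Dbp were lower for Nr1d2, at 0.529 and 0.543 (probe sets 1 and 2), and were 0.619 for Per2 (RefSeq mRNA), 0.636 for Nr1d1, -0.472 for Clock and -0.603 for Npas2.

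A single relation was tested. Bmal1 and Dbp gave r = -0.844 (permutation p = 2e-05, 100000 resamples, 2-sided) and Spearman's rho = -0.782 (p = 0.00037) over 17 arrays. Without replicates 1 and 2 of day 1, the farthest from the median Bmal1 signal, r was -0.700 (permutation p = 0.00475, n = 15) and rho -0.682. On deviations from the group means r was -0.773 (permutation p = 0.00011) and rho -0.755. The resampling moved these deviations freely between groups, although they are tied within each group and the groups differ in spread. The permutation p on deviations can therefore be too small. Over all 19 arrays r was -0.701 (permutation p = 0.00098) and rho -0.647, and without the same day 1 arrays r was -0.261 (permutation p = 0.325) and rho -0.507 (permutation p = 0.0389). Without those day 1 arrays, r thus depended on whether the arrays that stand apart were kept (-0.261) or left out (-0.700). Since the genes were chosen with earlier results of these data known, these p-values are not independent evidence.

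**Figure D4:**
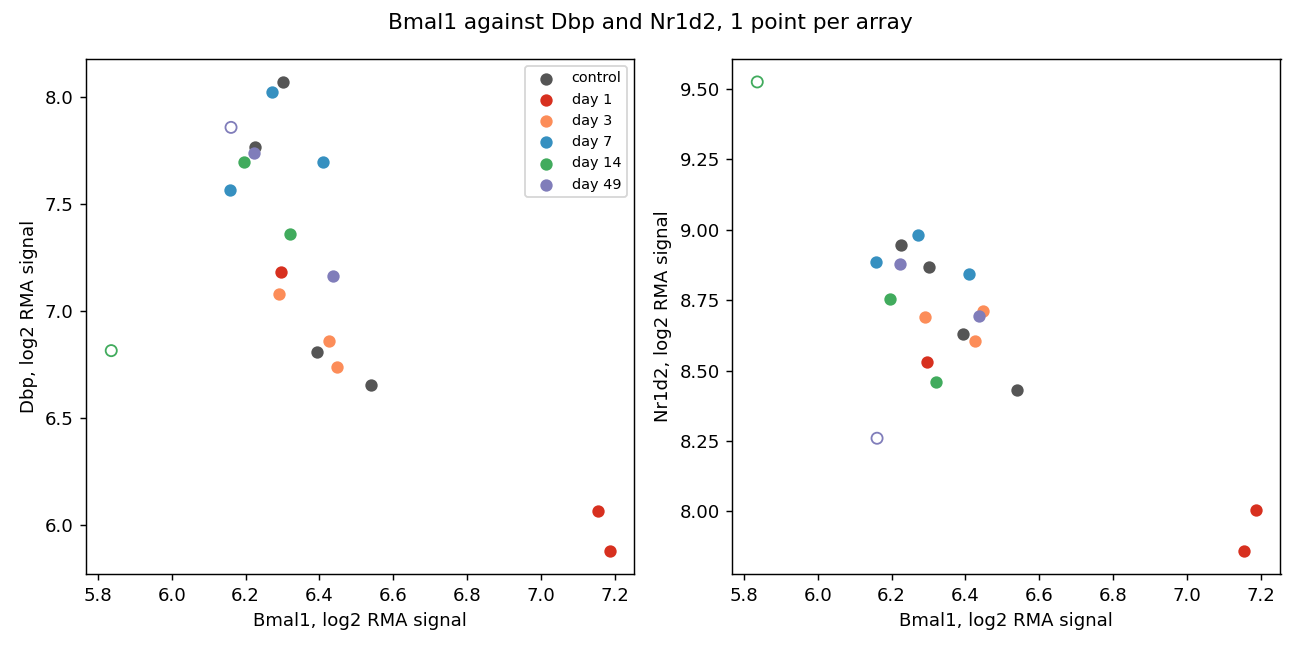
Dbp (left) and Nr1d2 (right, probe set 1) against Bmal1, log2 RMA signal on all axes, 1 point per array, coloured by group, with the arrays that stand apart open. Replicates 1 and 2 of day 1 lie at Bmal1 7.19 and 7.15 with Dbp at 5.88 and 6.06, and the filled points of the other groups descend from upper left to lower right.

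**Figure D5:**
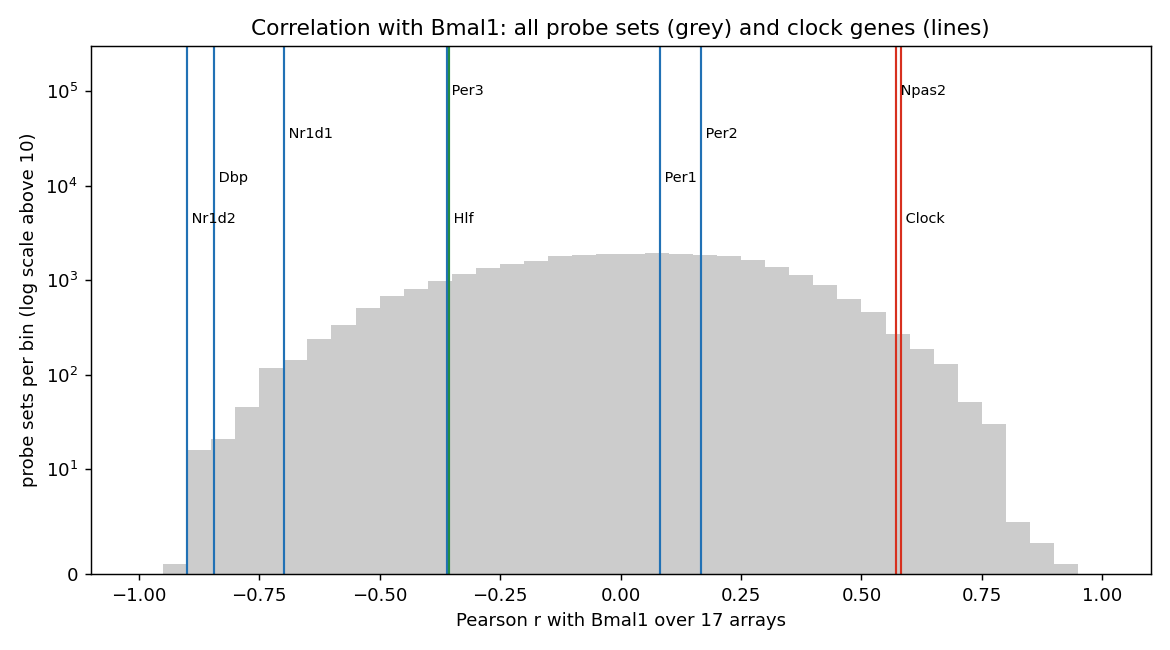
The number of probe sets (vertical axis, log scale above 10) by their correlation with Bmal1 over 17 arrays (horizontal axis), with vertical lines for the brightest probe set of each other clock gene. Nr1d2 at -0.900 and Dbp at -0.844 lie at the left end, Npas2 at 0.572 and Clock at 0.582 on the right, and Per1 and Per2 near the middle.

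The spread within groups was also read against that of all probe sets. Over the 17 arrays, the within-group SD of Per2 (RefSeq mRNA) exceeded that of 99.8% of all probe sets, that of Dbp 99.7%, that of Nr1d1 97.0% and that of Bmal1 95.7%. The brighter Per2 probe set stood at 41.7% and Per1 at 65.7%.

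Outside the list, the genes most like Bmal1 over the 17 arrays were Limch1 (r = 0.921), Kcne3 (r = 0.851) and Fbxl17l1 (r = 0.850), and the least like it Efemp1 (r = -0.896), Aldh1a1 (r = -0.888) and Gyg1 (r = -0.888). Without replicates 1 and 2 of day 1 these became 0.60, 0.53, 0.51, -0.33, -0.31 and -0.61, and over all 19 arrays 0.85, 0.09, 0.41, -0.73, -0.85 and -0.89. Those most like Dbp were Cd302 (r = 0.885), Ring1 (r = 0.869) and Chst1 (r = 0.855), and the least like it Limch1 (r = -0.872), Kcne3 (r = -0.838) and Zbtb11 (r = -0.834). Over all 19 arrays these were 0.17, 0.74, 0.31, -0.66, -0.43 and -0.12.

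Of 26 other clock genes listed, 20 were matched, and 0 of 20 passed at any time. At day 1, 9 were higher and 11 lower, with a median of -0.01, and 0 had an unadjusted p under 0.05. The largest count of such p was 7 of 20, at day 14, where 13.1% of all probe sets had one. That fit, like the F test below, includes the day 14 array that stands apart. Without the arrays that stand apart, 1763 of all probe sets had such a p at day 14, against 4069 with them. The count for these 20 genes without them is not given here. Wee1 spanned 6.30 to 7.24 within day 14. By the smallest p of the F test, Wee1, a cell cycle kinase whose gene carries E-boxes, came first, followed by Rora and Rorb, which encode the activators that compete with REV-ERB, then Nampt, Tipin and Fbxw11, all with an adjusted p of 0.724.

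A further 3 clock genes are named after their values were seen. Over the 17 arrays Bhlhe41, which encodes a repressor of E-box genes, was 21st of all in its correlation with Dbp (r = 0.815), and Tef, which encodes the D-box factor closest to Dbp and Hlf, was 50th (r = 0.778). Nfil3, which encodes the repressor at the D-box, was 94th highest with Bmal1 (r = 0.699) and had r = -0.626 with Dbp. These values used the brightest probe set of each gene, and the other Tef probe sets had r = 0.705 and -0.073 with Dbp. Over all 19 arrays, Bhlhe41 and Tef (brightest probe set) had 0.462 and 0.556 with Dbp. Nfil3 had 0.124 with Bmal1 and -0.362 with Dbp. With replicates 1 and 2 of day 1 left out of the 17 arrays, the same values were 0.761, 0.660, 0.504 and -0.348. Tef differed at day 1 by -0.51 and Nfil3 by 0.39, neither past the threshold.

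Gene lists for signals that reach the clock were read in the same arrays. Of 16 genes induced by neuronal activity, 14 were higher at day 1, with a median of 0.10, Egr1 at 0.48 and 0 past the threshold, while Per1 differed by 0.004. Of 12 glucocorticoid targets, 9 were higher at day 1 (median 0.04, Mt2A at 0.71, adjusted p = 0.541), and 0 of 12 were higher at day 3 than at day 1 (median -0.22). Of 6 temperature genes 3 were higher at day 1, with Rbm3 at 0.33. The means of the activity list lay 0.07, 0.14 and 0.07 above control in replicates 1, 2 and 3 of day 1. Those of the glucocorticoid list lay 0.09, 0.26 and 0.15 above it. The part of these signals in the clock values was not tested.

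Means over several marker lists of other cells also lay outside the control range in day 1 arrays. The mean of 5 markers of meninges and choroid plexus lay -0.41, -0.25 and -0.06 from control in replicates 1, 2 and 3 of day 1, against -0.10 to 0.09 in the controls, with 4 of 5 lower and Lum at -0.93. The mean of 5 microglial markers lay at -0.17, -0.20 and 0.25, against -0.08 to 0.15 in the controls, with 3 of 5 lower. The mean of 5 astrocyte markers lay 0.15, 0.16 and 0.19 above control, against -0.07 to 0.07, with 4 of 5 higher and Gfap at 0.64. The mean of the striatal markers lay at 0.10, 0.14 and -0.12, against -0.06 to 0.04. That of skeletal muscle, at -0.48, -0.48 and 0.56, stayed inside the control range of -0.52 to 1.07. Replicates 1 and 2 of day 1 lay both above or both below replicate 3 in all 13 lists but activity and glucocorticoid. Among 3 arrays such an order also occurs often by chance, and its share over all probe sets was not counted. No conclusion on the clock genes is drawn from it. Interneuron means (0.04, 0.06 and 0.18, against -0.02 to 0.02) and endothelial means (0.04, 0.07 and 0.17, against -0.06 to 0.04) were above every control in all day 1 arrays. In all, 8 of the 13 lists lay outside the control range in all 3 day 1 arrays, and their part in the clock values was not tested. Layer V markers differed by -0.04 to -0.003 in the day 1 arrays.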

How the data were processed

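The table deposited by the authors holds log2 signals, 1 per probe set and array, from biotin-labelled cRNA on Affymetrix rat arrays, made, per the submitters' processing notes, with RMA (version: not given in the sources used here). Quantile normalization within RMA removes any change common to all transcripts. The 57 array controls were left out of 31099 probe sets. Symbols came from the platform annotation, updated by gene ID: 20826 probe sets had 1 symbol, 436 several and 9780 none. A gene is represented by its brightest probe set, and signal levels of different genes were not ranked. The clock genes, gene lists and rules for naming genes were chosen with earlier results of these data known.

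Each probe set was tested in 1 limma 3.58.1 fit (R 4.3.3) of 6 group means over 19 arrays, with 13 residual and 2.76 prior degrees of freedom, 2-sided, Benjamini-Hochberg over 31042 probe sets, threshold 0.05, intervals of 95%. On simulated data (day 1 against control, 31042 probe sets, 50 changed at each size) the fit found 17 of those shifted by 0.5 log2 units, 37 of those by 1, 49 of those by 2 and 50 of those by 3, with 12 false calls. The simulated noise was normal and independent between probe sets and arrays, with no array that stands apart. These counts need not hold for the real arrays. Groups share replicate numbers in the labels; deviations of like-numbered control and day 1 arrays correlated by 0.166, 0.117 and 0.269. Arrays carry no read depth, and their number limits the precision. Alternatives were other scalings, a filter on low signals, eBayes settings, array weights, covariates, the replicate block, fits without arrays and other arm definitions. Plots used matplotlib 3.10.9 in Python 3.11.15.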

Additional observations from a re-analysis of the deposited data

Results flagged for a closer look

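In 4 cases every array of one time lay on the other side of the control mean from every array of another time, and these differences between times were not tested. The mean of the outputs (Dbp, Per1, Per2, Per3, Nr1d1 and Nr1d2) was below the control mean in all day 3 arrays (-0.15 to -0.08) and above it in all day 7 arrays (0.10 to 0.26), a difference of -0.29 between the group means. It was also above it in all day 14 arrays (0.02 to 0.15), a difference of -0.21 between day 3 and day 14, but with Per2 taken by its RefSeq mRNA probe set replicate 1 of day 14 lay at -0.09, below the control mean. Activators minus outputs was positive in all day 1 arrays and negative in all day 7 arrays, a difference of 0.86. It was positive in all day 3 arrays and negative in all day 7 arrays, a difference of 0.42.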

How the results depend on the processing

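No clock probe set passed at days 3, 7 or 14 against control, between days 3 and 7 or between days 7 and 14 under any alternative run. With array weights the clock probe sets passing numbered 3 at day 1, 7 at day 49, 3 between days 1 and 3, 4 between days 14 and 49, and 10 in the F test, where all probe sets passing numbered 175, 6514, 491, 2985 and 6413. With the beta-actin covariate 1 passed at day 1. With 1 array left out, 0 to 1 passed at day 1 (1 without day 1 replicate 3) and 0 to 3 at day 49 (3 without day 49 replicate 1, where 2435 of all probe sets passed). With the replicate block 0 passed in any comparison. The mean of activators minus outputs at day 3 ranged from 0.0817 to 0.251 with 1 array left out, its ends being without control replicate 4 and control replicate 1. Its day 14 mean ranged from -0.12 to 0.13. Of 2899 single differences under alternatives, 263 had the opposite sign, and in 8 of these the difference was past the threshold in either fit or larger than its SE in both. Against control, Clock (probe set 1) at day 14 became -0.14 with array weights and -0.17 without the arrays that stand apart. Per2 (RefSeq mRNA probe set) at day 49, at -0.01 (SE 0.393) in the fit of all arrays, became 0.88 and Hlf (probe set 4) -0.11 with array weights. Without the arrays that stand apart, Clock between days 7 and 14 became -0.13. With array weights, Npas2, Hlf (probe set 1) and Nr1d2 (probe set 1) between days 14 and 49 became 0.15, 0.36 and 0.29. The cause was not tested. In the simulated data 17 of 50 changes of 0.5 were recovered.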

Other observations

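Where members had several probe sets, these did not always give the same account. The Per2 probe sets had within-group SDs at the 99.8 and 41.7 percentiles of all probe sets over the 17 arrays, and correlated with Dbp by 0.761 and -0.169. Of the Hlf probe sets, 3 had a positive correlation with Dbp (0.479, 0.699 and 0.439) and the dimmest (probe set 4) a negative one (-0.466). Of the Clock probe sets, 3 had a positive correlation with Bmal1 (0.582, 0.316 and 0.275) and the dimmest (probe set 4) had -0.171. The Per3 probe sets had 0.545 and -0.363 with Dbp. Cry1, a repressor that acts with the PER proteins, correlated by 0.098 with Dbp and 0.001 with Bmal1, and the brighter Cry2 probe set by 0.544 with Dbp and -0.412 with Bmal1.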
